A study of Mus musculus with 24 samples.

Results

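Microglial identity and complement C1q genes were followed here through the hippocampal RNA sequencing of Tob-KO and WT mice. The 9 genes Cx3cr1, P2ry12, Csf1r, Tmem119, Trem2, Aif1, C1qa, C1qb and C1qc were taken by name from the 47593 genes of the count table, and each name matched 1 row. Male C57BL/6J mice aged 8 to 12 weeks were WT or Tob-KO. In each genotype mice were naive, or were taken after contextual fear conditioning, a training with foot shocks, at 15 min, at 1 h or at 3 h. Every one of the 8 groups had 3 libraries of hippocampal poly(A) RNA, 24 in all, labelled as biological replicates. All 24 libraries were thus bulk tissue, with no sorting of microglia.

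Microglia are the resident macrophages of the brain parenchyma. They depend on Csf1r, the receptor for CSF1 and IL-34, and they sense neurons and injury through Cx3cr1, the receptor for neuronal fractalkine, and P2ry12, a purinergic receptor for ADP that guides their processes. Tmem119 is a surface protein widely used to tell microglia from other macrophages, Trem2 is a lipid and lipoprotein receptor that signals through Tyrobp, and Aif1 encodes the cytoplasmic marker IBA1. C1qa, C1qb and C1qc encode the chains of C1q, the recognition molecule that starts the classical complement pathway and tags synapses for removal. In the adult brain microglia are the main source of C1q, while border macrophages and monocytes also express several of these genes.

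The C1q genes lie side by side on the reverse strand of mouse chromosome 4 (GRCm38, GENCODE), C1qb at chr4:136880129-136886187, C1qc at chr4:136889804-136893065 and C1qa at chr4:136895917-136898803, within 18675 bp. Promoter sequence (250 bases before the RefSeq start, GRCm38.p6) was read for 6 of the 9 genes. The windows of Csf1r, Tmem119 and C1qa were not read, so that a match in them was not tested. The letters AGGAAGT are a core bound by ETS factors such as the myeloid regulator PU.1. Windows that hold them are shown as a description. Whether the letters have a part in how the genes varied together between mice was not tested. Capitals mark AGGAAGT or, on the other strand, its complement ACTTCCT.

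C1qb, chr4:136886201-136886450, reverse strand: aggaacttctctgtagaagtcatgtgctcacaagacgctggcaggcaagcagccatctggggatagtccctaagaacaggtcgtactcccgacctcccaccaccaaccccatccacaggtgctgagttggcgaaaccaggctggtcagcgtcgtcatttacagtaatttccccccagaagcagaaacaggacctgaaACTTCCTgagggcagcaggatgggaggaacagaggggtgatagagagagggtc
C1qc, chr4:136892915-136893164, reverse strand: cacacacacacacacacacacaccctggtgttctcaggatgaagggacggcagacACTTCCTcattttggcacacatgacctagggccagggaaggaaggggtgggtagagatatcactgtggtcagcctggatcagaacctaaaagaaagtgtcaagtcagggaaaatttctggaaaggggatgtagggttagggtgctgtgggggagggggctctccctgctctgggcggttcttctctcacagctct
P2ry12, chr3:59262986-59263235, reverse strand: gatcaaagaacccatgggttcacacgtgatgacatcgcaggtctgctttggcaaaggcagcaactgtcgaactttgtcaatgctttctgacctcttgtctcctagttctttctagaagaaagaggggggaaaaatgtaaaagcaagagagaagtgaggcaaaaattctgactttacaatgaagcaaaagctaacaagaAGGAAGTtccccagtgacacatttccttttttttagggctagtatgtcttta

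Counted from the RefSeq starts, the match lay 53 to 47 bases before C1qb, 52 to 46 before P2ry12 and 195 to 189 before C1qc. The GENCODE gene starts differ from these, and most of the C1qc window lies inside the GENCODE gene. Counted from the GENCODE starts, the match lay 66 to 60 bases before C1qb, 166 to 160 before P2ry12 and 44 to 38 before C1qc, so that the order of the distances depends on the annotation. The windows of Cx3cr1, Trem2 and Aif1 did not hold these letters on either strand. Of 32851 promoter windows of the same length, 7.69% held them, so that a match is a description of the letters only. Another motif was also searched for and had no match in the windows read.

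The libraries held 28847989 to 41595972 counts. Tob1, the targeted gene, was counted in every library and was higher in those labelled Tob-KO, with 59.8 ± 6.57 CPM against 40.4 ± 3.48 CPM in WT (SD, n = 12 each), a log2 fold change of 0.56 (SE 0.04, adjusted p = 1.17e-09). The genotype is therefore given below as the libraries were labelled. Choroid plexus markers, a list of 15 genes, summed to between 198 and 7340 CPM over the 24 libraries, and the exact test of edgeR called all 15 higher in the Tob-KO libraries at 15 min, where the 3 WT libraries held 198 to 236 CPM and the 3 Tob-KO libraries 285 to 5330 CPM. Markers of border macrophages (10 genes, led by Mrc1, F13a1, Cd163 and Lyve1) summed to 6.53 to 18.6 CPM, and those of blood monocytes and neutrophils (9 genes) to 0.249 to 4.97 CPM, with none of the 9 at 1 CPM on average. Markers of red cells summed to 36.1 to 133 CPM. At 15 min the exact test called S100a8 of the blood list and Alas2 of the red cell list lower in Tob-KO, where it called 0.555% of all genes. The quasi-likelihood test of edgeR called 0 genes of the whole table at that time, so that none of these calls held with it. Fits with the choroid plexus score as a covariate are given where named, and the part of the other lists was not tested.

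All 9 genes were counted in all 24 libraries, and together they took 0.0256% to 0.0334% of the reads (median 0.0283%). Levels are CPM, read counts relative to the TMM-scaled library size, and between genes they also depend on transcript length. Csf1r had 87.0 ± 4.26 CPM (SD, n = 24) and Cx3cr1 46.4 ± 5.31 CPM. C1qb had 33.2 ± 2.74 CPM, C1qa 30.4 ± 3.05 CPM and C1qc 25.9 ± 2.38 CPM. P2ry12 and Tmem119 had 28.4 ± 2.47 and 21.4 ± 1.51 CPM. Trem2 had 8.29 ± 0.937 CPM and Aif1 2.93 ± 0.456 CPM, the latter from 75 to 165 counts per library.

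An order of the genes by level needs a length for each, and it depends on the length used. Here it was that of all annotated exons of a gene joined, from 1040 bp for C1qa to 5774 bp for Csf1r. For Trem2 it was 4946 bp and for Aif1 1532 bp. Which transcripts were expressed was not tested, so that the order holds for this measure only. The means were 30.5 CPM per kb for C1qb and 29.2 CPM per kb for C1qa, and C1qb exceeded C1qa in 20 of 24 libraries. The next level, Csf1r, was 15.1 CPM per kb and lay below C1qa in each of the 24 libraries. C1qc followed at 13.4 CPM per kb, P2ry12 at 11.1, Cx3cr1 at 10.3 and Tmem119 at 9.22. Aif1 and Trem2, at 1.92 and 1.68 CPM per kb, were the lowest by this measure, and Aif1 exceeded Trem2 in 17 of 24 libraries only.

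**Figure D1:**
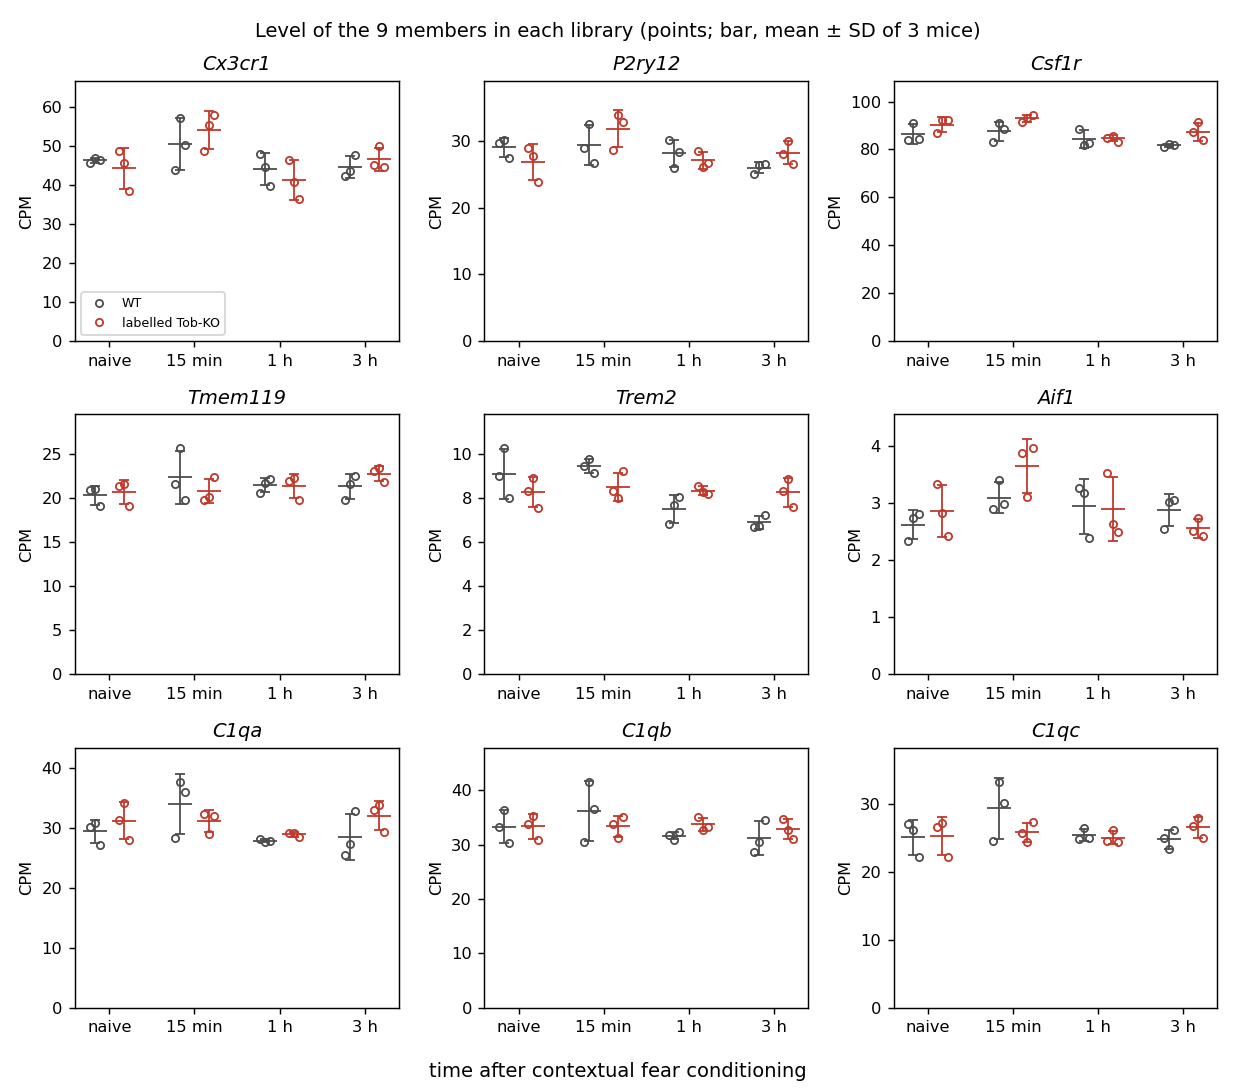
Level of each gene in each library, in CPM on a linear axis from 0, by time after conditioning. Open points are libraries (grey, WT; red, labelled Tob-KO), and bars are the mean ± SD of 3 mice. Groups next to each other in order of their means, an order not drawn here, overlap for every gene. Groups side by side in the figure do not always overlap. Trem2 of WT mice at 3 h, 6.70 to 7.23 CPM, lies below all naive values and below Tob-KO at 3 h, 7.57 to 8.88 CPM.

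The annotated span of Cx3cr1 (chr9:119901616-120069879, reverse strand) overlaps 9 other genes, among them Wdr48 on the opposite strand and Gorasp1 and Csrnp1 on the same strand, and how reads shared between genes were counted is not stated. Among the receptors, Cx3cr1 had the widest spread between mice, with a coefficient of variation of 9.46% within groups where counting error alone gives 2.62%. WT naive mice had 45.5, 46.7 and 46.4 CPM, and Tob-KO naive mice 48.7, 45.5 and 38.5 CPM. At 15 min WT mice had 43.8, 57.1 and 50.1 CPM and Tob-KO mice 48.5, 55.4 and 57.9 CPM. These 15 min groups had the highest means, 50.3 and 53.9 CPM, yet their lowest libraries lay within the range of the 6 naive mice. At 1 h the means were 44.1 ± 4.04 CPM in WT and 41.2 ± 5.09 CPM in Tob-KO, and at 3 h 44.5 ± 2.82 and 46.5 ± 3.00 CPM (SD, n = 3).

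P2ry12 (chr3:59216272-59262871, reverse strand) lies inside the opposite-strand gene Med12l, and since the strand setting of the counting is not stated, reads of both genes may not be fully separated. Its group means ran from 26.0 ± 0.807 CPM in WT mice at 3 h to 31.9 ± 2.76 CPM in Tob-KO mice at 15 min. Csf1r, which overlaps the opposite-strand gene Hmgxb3 at its end (gene span chr18:61100598-61132149, forward strand), was the steadiest of the 9, with a coefficient of variation of 3.52% within groups. Its residual SD on the log2 scale was 0.05, below the median of 0.07 for genes of similar level, while that of Cx3cr1 was 0.14 against 0.08. Csf1r had 83.8, 91.1 and 84.5 CPM in WT naive mice and 86.8, 92.3 and 92.2 CPM in Tob-KO naive mice. At 15 min it had 83.0, 91.2 and 88.4 CPM in WT and 91.6, 93.1 and 94.4 CPM in Tob-KO. The genotypes overlapped in naive mice and did not at 15 min.

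Tmem119 (chr5:113793729-113800516, reverse strand) stayed within 19.1 to 25.6 CPM over all libraries, and its group means differed by 1.12-fold at most. Aif1 (chr17:35170991-35176068, reverse strand) ranged from 2.33 to 3.95 CPM. At its low counts the coefficient of variation within groups, 13.1%, was close to the 10.4% that counting error gives. Trem2 (chr17:48346401-48354147, forward strand) had 9.01, 10.3 and 8.02 CPM in WT naive mice, 9.43, 9.78 and 9.13 CPM at 15 min, 6.81, 7.68 and 8.05 CPM at 1 h and 6.70, 6.75 and 7.23 CPM at 3 h. In Tob-KO mice it had 8.33, 8.92 and 7.56 CPM when naive, 8.32, 8.00 and 9.23 CPM at 15 min, 8.56, 8.26 and 8.20 CPM at 1 h and 8.32, 8.88 and 7.57 CPM at 3 h. The WT values at 3 h lay below every WT naive value and every Tob-KO value, whereas the 4 Tob-KO groups overlapped each other.

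For each of the 9 genes the 8 groups were put in order of their means. In none of the 7 neighbouring pairs of any gene did the libraries of the groups separate, so that the order of single neighbours is not larger than the spread between mice. WT mice at 15 min had the highest mean of C1qa, C1qb, C1qc and Trem2, and Tob-KO mice at 15 min that of Cx3cr1, P2ry12, Csf1r and Aif1. The lowest mean was that of WT mice at 3 h for P2ry12, Csf1r, Trem2, C1qb and C1qc.

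The C1q genes were high or low in the same libraries. C1qa had 28.3, 37.7 and 36.03 CPM in WT mice at 15 min, C1qb 30.6, 41.5 and 36.5 CPM and C1qc 24.6, 33.3 and 30.2 CPM. In each case the first mouse was low and the second the highest of all 24 libraries. At 1 h the 3 WT mice agreed closely, with 28.2, 27.6 and 27.7 CPM of C1qa and a C1q sum of 84.7 to 85.0 CPM, whereas the sum ran from 83.4 to 112 CPM at 15 min. In Tob-KO mice the sum was 89.8 ± 7.98 CPM when naive, 90.3 ± 5.05 at 15 min, 87.7 ± 1.37 at 1 h and 91.4 ± 5.32 at 3 h (SD, n = 3).

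The shares of the subunit genes differed less between libraries than their sum. Of the C1q signal per kb of exon, C1qa made up 39.9% ± 1.07, C1qb 41.7% ± 1.11 and C1qc 18.4% ± 0.754 (SD, n = 24). Over the 8 group means the share of C1qc ran from 17.8% to 19.1%. The protein holds equal numbers of the chains, and reads per kb measure RNA only. The exon length used was 1931 bp for C1qc, 1040 bp for C1qa and 1088 bp for C1qb, and the shares depend on it. A log2 ratio of the C1q genes to the receptors was taken as the difference of their mean log2 CPM, without centring each gene. It was 0.10 ± 0.16 in WT mice at 15 min and -0.05 ± 0.10 in Tob-KO mice at 15 min, and the groups overlapped. Only differences between groups can be read from it, since its sign depends on the levels of the genes.

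**Figure D2:**
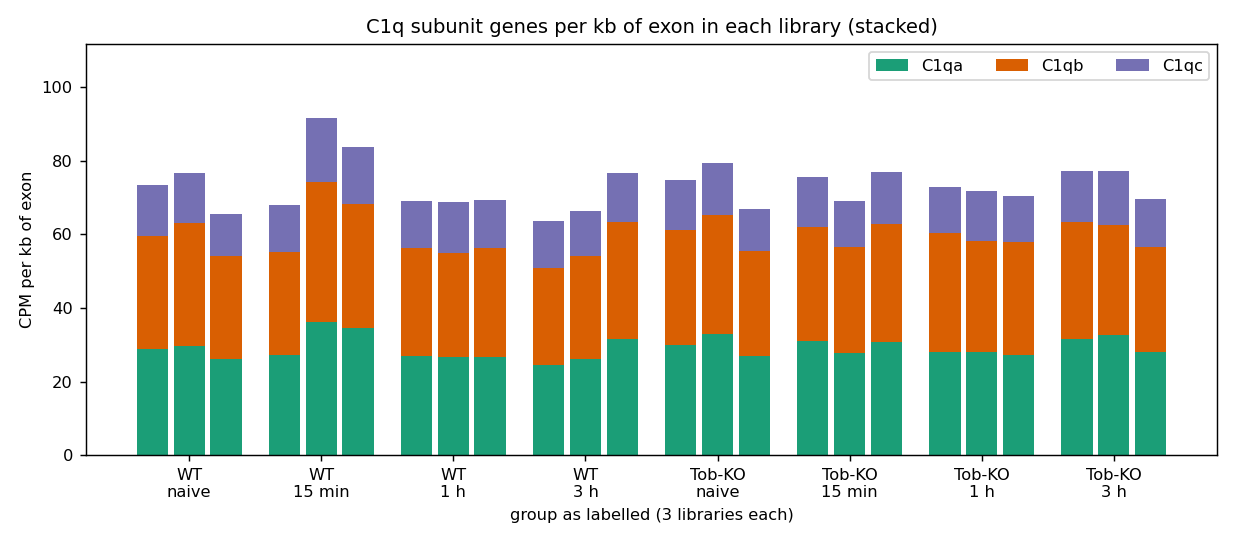
Stacked bars give CPM per kb of exon for C1qa, C1qb and C1qc in each of the 24 libraries, ordered by labelled genotype and time, on a linear axis from 0. The height differs between mice of 1 group, most in WT mice at 15 min, while the proportions stay near 39.9%, 41.7% and 18.4%.

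The first comparison asked whether these genes differed between genotypes at each time, with the exact test of edgeR at a false discovery rate of 0.05 and a fold change of 2. In bulk tissue, fewer microglia and less RNA per microglial cell cannot be told apart. In naive mice 0 of 9 genes were called, against 0.0218% of 18364 genes tested. At 15 min 0 of 9 were called against 0.555% of all genes, at 1 h 0 of 9 against 0.033%, and at 3 h 0 of 9 against 0.0274%. At an unadjusted p under 0.05 the exact test also gave 0 of 9 at each time. DESeq2 and the quasi-likelihood test of edgeR called 0 of 9 as well. At an unadjusted p under 0.05 the quasi-likelihood test gave 1 of 9 at 3 h, also with the dispersion of all 24 libraries.

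Some groups separated without passing the test. At 1 h Trem2, C1qa and C1qb were higher in all 3 Tob-KO libraries than in all 3 WT libraries, where 11.6% of all genes did not overlap in either direction. C1qa had 29.2, 29.2 and 28.4 CPM in Tob-KO against 27.6 to 28.2 CPM in WT, a log2 fold change of 0.06 (SE 0.05). At 3 h P2ry12, Csf1r and Trem2 were higher in each Tob-KO library, against 12% of all genes. Of these Trem2 had the largest log2 fold change, 0.25 (SE 0.10; adjusted p = 1 by the exact test), with 8.26 ± 0.655 against 6.89 ± 0.296 CPM. At 15 min Csf1r alone separated, against 13.7% of all genes, with a log2 fold change of 0.09 (SE 0.06; adjusted p = 0.92).

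Over all time points, 12 Tob-KO against 12 WT mice with time as a factor, 0 of 9 genes were called by the quasi-likelihood test, against 0.456% of 19500 genes tested, and DESeq2 called 0 of 9. Csf1r was the 1 gene with an unadjusted p under 0.05. It had 88.9 ± 3.98 CPM in Tob-KO and 85.0 ± 3.74 CPM in WT, a log2 fold change of 0.06 (SE 0.02, 95% confidence interval 0.02 to 0.11, adjusted p = 0.225). The log2 fold change was 0.0005 for Cx3cr1 (-0.11 to 0.11), 0.02 for P2ry12 (-0.08 to 0.11), 0.0012 for Tmem119 (-0.09 to 0.09) and 0.03 for Trem2 (-0.09 to 0.15). Among the complement genes it was 0.04 for C1qa (-0.06 to 0.15), 0.01 for C1qb (-0.09 to 0.11) and -0.03 for C1qc (-0.13 to 0.08). Aif1 had the widest interval, -0.13 to 0.21 around 0.04. The intervals bound the difference but do not show that the genotypes were alike.

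**Figure D3:**
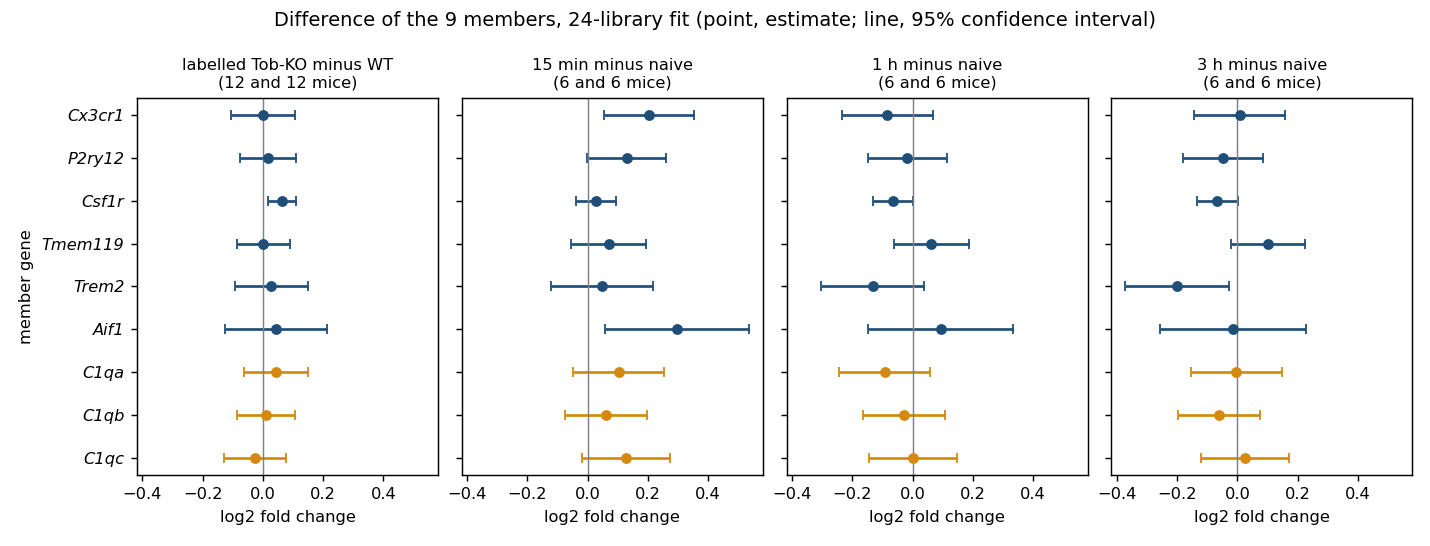
Log2 fold change of each gene (x axis) in the fit of 24 libraries, for labelled Tob-KO against WT and for each time against naive mice of both genotypes. Points are estimates, lines 95% confidence intervals, blue the receptors and Aif1, orange C1q. Every interval of the genotype panel except that of Csf1r (0.02 to 0.11) includes 0, and all 9 estimates at 15 min lie above 0.

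The second comparison followed the genes after conditioning, the times sharing the naive mice as controls. Within a genotype, with a fold change of 2 also required, 0 of 9 genes were called by the quasi-likelihood test in WT mice at 15 min (background 0% of 18349 genes), 1 h (0.011%) and 3 h (0%). In Tob-KO mice 0 of 9 were called at 15 min (0.0218%), 1 h (0.0491%) and 3 h (0%). DESeq2 and the exact test called 0 of 9 in each. Over both genotypes, 6 against 6 mice without a fold limit, 0 of 9 were called at 15 min against 4.7% of 19500 genes, 0 of 9 at 1 h against 6.15%, and 0 of 9 at 3 h against 0%, and DESeq2 also called 0 of 9.

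At 15 min all 9 genes had a log2 fold change above 0, from 0.03 for Csf1r to 0.30 for Aif1, with a median of 0.10 where all genes tested had a median of 0.0027. An unadjusted p under 0.05 was reached by 2 of 9, where 20.1% of all genes reached it. Cx3cr1 had 52.1 ± 5.56 CPM at 15 min and 45.2 ± 3.50 CPM in naive mice, a log2 fold change of 0.20 (SE 0.07, adjusted p = 0.106). Aif1 had a log2 fold change of 0.30 (SE 0.12, adjusted p = 0.143). The C1q genes were at 0.10 (C1qa), 0.06 (C1qb) and 0.13 (C1qc), with SEs of 0.07 each, and P2ry12 at 0.13 (SE 0.06).

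The call of Cx3cr1 depended on 1 library. Without WT 15 min replicate 1, in which all 9 genes lay below their group mean, Cx3cr1 was called, with a log2 fold change of 0.25 (SE 0.07, adjusted p = 0.0319), and it was then the 1 gene of 9 called. With the choroid plexus score of each library as a covariate it was 0.20 (adjusted p = 0.132). Endothelial markers moved at the same time: 4 of 8 were called higher at 15 min, Cldn5, Flt1, Itm2a and Pecam1, with log2 fold changes from 0.36 to 0.85, and the sum of the list was 257 to 357 CPM at 15 min and 192 to 261 CPM in naive mice. Of 8 astrocyte markers Aqp4 and Gja1 were called higher. Of all genes tested 4.7% were called at 15 min. The part of endothelium and astrocytes in the 15 min values was not tested.

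In Tob-KO mice alone at 15 min the largest estimates of the receptors were those of Cx3cr1, 0.29 (SE 0.10, adjusted p = 0.296), and P2ry12, 0.25 (SE 0.10, adjusted p = 0.341), and for both the 15 min and naive libraries overlapped. The C1q estimates there were near 0, at 0.0007 for C1qa and 0.0043 for C1qb. In WT mice the C1q estimates were 0.21 for C1qa (SE 0.11), 0.12 for C1qb (SE 0.11) and 0.22 for C1qc (SE 0.12), and those of Cx3cr1, P2ry12 and Tmem119 were 0.12 (SE 0.09), 0.02 (SE 0.09) and 0.13 (SE 0.10). The interaction of genotype and time at 15 min called 0 of 9 genes, against 0% of 19500 genes tested, with 0 of 9 at an unadjusted p under 0.05, and DESeq2 called 0 of 9.

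In WT mice at 3 h the Trem2 estimate was the farthest from 0 of the 9. Its log2 fold change from naive was -0.39 (SE 0.12, adjusted p = 0.999), and P2ry12 and Csf1r also lay lower in every library, at -0.16 (SE 0.06) and -0.08 (SE 0.05), where 9.57% of all genes did not overlap. In Tob-KO mice at 3 h Trem2 was at -0.01 (SE 0.11), and Aif1 (-0.17, SE 0.17) and Tmem119 (0.13, SE 0.08) were farther from 0. The test of the difference between genotypes gave 0.40 for Trem2 on the log2 scale (SE 0.14, 95% confidence interval 0.10 to 0.69, adjusted p = 0.894) and did not pass. At 3 h and at 1 h the interaction called 0 of 9 genes against 0% and 0% of all genes, and 1 of 9 and 0 of 9 had an unadjusted p under 0.05. By DESeq2 the interaction called 0 of 9 at both times.

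Between mice of 1 group the genes varied together. In 5 of 24 libraries all 9 genes lay above their group mean (WT naive replicate 2, WT 15 min replicate 2, WT 3 h replicate 3, Tob-KO 15 min replicate 3 and Tob-KO 3 h replicate 2), and in 3 libraries all 9 lay below it (WT 15 min replicate 1, Tob-KO 1 h replicate 3 and Tob-KO 3 h replicate 3). Correlations of log2 CPM after subtraction of group means were computed for all 36 pairs over 24 libraries, with 100000 permutations within groups and Benjamini-Hochberg adjustment over the pairs. All 36 were above 0, from 0.21 to 0.92 with a median of 0.52, and 13 passed an adjusted p of 0.05 by Pearson's r and 13 by Spearman's rho. The genes of a pair share library, depth and scaling.

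The closest pair was C1qa and C1qb, with r = 0.917 (permutation p = 8.0e-05, adjusted p = 0.00144) and rho = 0.863 (permutation p = 0.00013, adjusted p = 0.00234), and r = 0.875 without the 2 libraries farthest from the median of C1qa. C1qa with C1qc had r = 0.835 and C1qb with C1qc r = 0.796. Of the receptors, Tmem119 and Trem2 had r = 0.686 (permutation p = 2.0e-05, adjusted p = 0.00072) and rho = 0.817 (permutation p = 3.0e-05, adjusted p = 0.00108), and r = 0.774 without the 2 farthest libraries. Cx3cr1 went most closely with Aif1 (r = 0.729, rho = 0.768) and P2ry12 (r = 0.702, rho = 0.766). Csf1r had r from 0.24 to 0.53 against the other 8 genes.

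With scaling by library size alone the median r was 0.50. The libraries were also divided by their choroid plexus score, which was decided with the data in view. Within the 14 libraries that scored above 0, r was above 0 in 35 of 36 pairs with a median of 0.48, and within the 10 libraries below 0 in 36 of 36 with a median of 0.60. C1qa and C1qb had r = 0.891 and 0.945 in these sets.

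**Figure D4:**
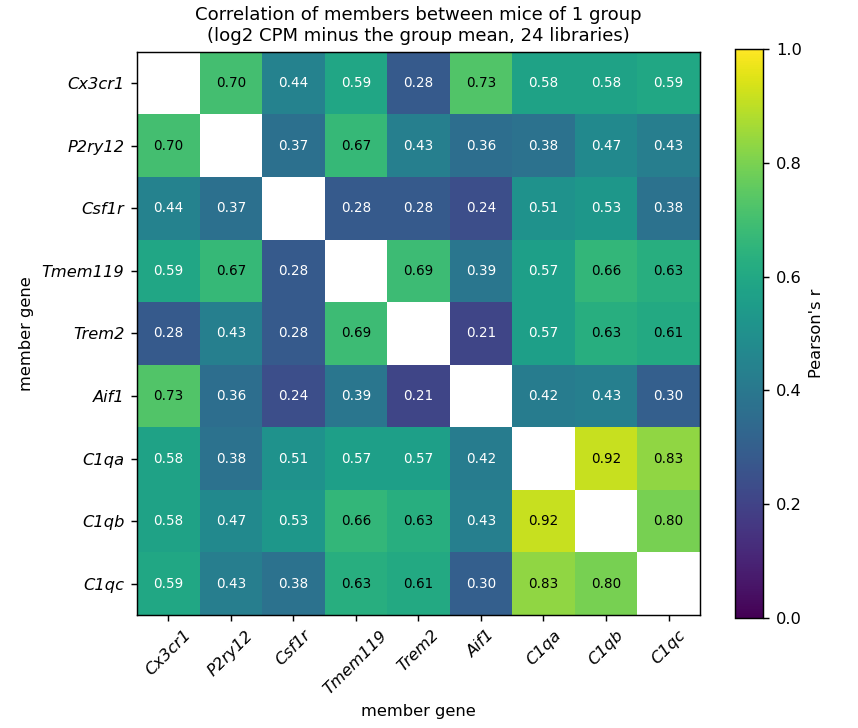
Pearson's r between each pair of the 9 genes over 24 libraries, computed on log2 CPM after subtraction of the group mean (colour scale 0 to 1, value printed in each cell). The block of C1qa, C1qb and C1qc holds the highest values, 0.80 to 0.92, and the lowest value is 0.21, of Trem2 with Aif1.

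Other genes of the same cells and pathways were read from lists. Of 20 further microglial identity genes none was called between genotypes, over all times or at any time, and Cst3, Sparc and Golm1 had log2 fold changes of -0.10 (SE 0.05), -0.02 (SE 0.05) and 0.07 (SE 0.07) over all times. After conditioning in both genotypes 17 of 20 were above 0 at 15 min, with a median of 0.11, but the 1 gene called fell, near the 4.7% called among all genes. This was Mertk, a receptor for dying cells that astrocytes also express, with 44.6 ± 6.25 CPM against 60.2 ± 2.33 CPM in naive mice (log2 fold change -0.44, SE 0.08, adjusted p = 0.003). Mertk was called lower again at 1 h, by -0.46 (SE 0.08, adjusted p = 0.00137), as was Hpgds, a prostaglandin D synthase, by -0.32 (SE 0.09, adjusted p = 0.0272). Of all genes tested 6.15% were called at 1 h.

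Among 24 myeloid genes, led by Ctsd, Lgmn, Ctss and Laptm5, Csf2ra was called at 15 min and 1 h. As 1 of 24 it does not exceed the shares of all genes called, 4.7% and 6.15%. This chain of the GM-CSF receptor fell to 13.2 ± 2.98 CPM at 15 min from 20.2 ± 1.45 CPM in naive mice (log2 fold change -0.63, SE 0.10, adjusted p = 0.00157), and it was 12.7 ± 1.35 CPM at 1 h (-0.67, SE 0.10, adjusted p = 0.000491). The other 23 were not called at any time. Laptm5, a lysosomal protein of leukocytes, was at 0.15 (SE 0.05, adjusted p = 0.0853) at 15 min.

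The ligands and partners of the receptors did not pass any test, 0 of 11 in each comparison. Cx3cl1, the neuronal ligand of Cx3cr1, had 563 ± 26.6 CPM in Tob-KO and 567 ± 36.5 CPM in WT mice (SD, n = 12). Apoe and Clu, lipoprotein ligands of Trem2, had log2 fold changes of -0.01 (SE 0.04) and -0.02 (SE 0.04) between genotypes, and Adam10, a sheddase, 0.03 (SE 0.02).

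Of 23 further complement genes 20 passed the filter on low counts in every comparison of genotypes, and none was called there. Cd46, a membrane inhibitor of complement, was called lower after conditioning, with 5.04 ± 1.19 CPM at 15 min (log2 fold change -0.50, SE 0.13, adjusted p = 0.0267) and 4.32 ± 0.371 CPM at 1 h (-0.72, SE 0.13, adjusted p = 0.00222) against 7.14 ± 0.988 CPM in naive mice. Among all genes tested 4.7% were called at 15 min and 6.15% at 1 h. The neuronal complement-domain genes Sez6, Susd4, Csmd1 and Csmd2, the most abundant of the list, were not called. No gene of the reactive microglia list, led by Ctsb, Cd63, Axl and Cd9, was called between genotypes or over time. Of its 15 genes only 7 reached 1 CPM on average. The others had few counts, and some did not pass the filter in the fit of 24 libraries. For these low genes the lack of a call does not show a lack of change. Cd63 had the lowest adjusted p of these 4 between genotypes, 0.19, with 65.7 ± 13.4 against 53.5 ± 8.35 CPM.

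Outside all lists, the genes most like the mean of the 9 over the 24 libraries, among 14449 genes of at least 1 CPM, were Rplp1 (r = 0.848), Rpl13 (0.835) and Rpl34 (0.830), which encode ribosomal proteins, Bin2 (0.823) and Tnfrsf1b (0.822), the latter a TNF receptor. Group means were not subtracted here, unlike for the pairs of the 9 genes, so that differences between groups also enter these values. These values are descriptions over libraries that share depth, and the median r of all genes was -0.0064. Of listed genes, Laptm5 (0.810), S100b (0.806), Ctss (0.777), Olfml3 (0.766) and Cldn5 (0.763) were among the next, so that astrocyte and endothelial markers stood among the microglial ones.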

How the data were processed

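Total RNA of mouse hippocampi was purified for poly(A) RNA and sequenced as directional 150-bp paired-end libraries. According to the study's methods, the authors mapped reads to GRCm38 with STAR 2.6.1d in nf-core/rnaseq and counted them with HTSeq 0.9.0. The authors deposited counts as integers, 1 for each gene in each library, without normalization. The annotation release, the strand setting and the treatment of reads shared between genes are not given in the sources used here. PCR reads carried no molecular identifiers, so that counts are not independent molecules.

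For CPM, correlations and fits of all libraries, counts were scaled by TMM over the 24 libraries. Tests within 1 time or 1 genotype were scaled by TMM over the libraries of the comparison. Genes reaching 0.2 CPM in 2 or more libraries of the comparison were kept for tests. Genotypes at 1 time were compared with edgeR's exact test, as in the study, and all else with edgeR's quasi-likelihood test (edgeR 4.0.16, R 4.3.3), which also gave the standard errors and confidence intervals. Adjusted p-values (Benjamini-Hochberg) cover all genes tested. A gene was called at an adjusted p of 0.05, with a fold change of 2 where stated. DESeq2 1.42.0, other scalings, filters and left-out libraries were alternatives. Correlations used log2 CPM (prior count 2) in Python 3.11.15 with SciPy 1.17.1. Fits were tested on simulated counts.

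The 9 genes and all lists were chosen with earlier results of these data known. Named besides the 9 were Tob1, called list genes, up to 4 of each list with the highest mean CPM, and the 5 unlisted genes most like the 9. A listed gene that this rule names is not reported here. Coordinates are from GENCODE's annotation of GRCm38, which may differ from the one counted.

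Groups share replicate numbers, but deviations of same-numbered libraries correlated above 0.1 in all 3 pairs only for Tob-KO mice at 15 min and naive (0.125 to 0.54).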

Additional observations from a re-analysis of the deposited data

How the results depend on the processing

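No gene of the 9 was called in any of the 17 comparisons, and this held in all 17 with DESeq2, RLE scaling, library size alone, no filter on low counts and the replicate block (0 of 9 called). It also held where the other edgeR test, another fold limit, the dispersion of all 24 libraries or the choroid plexus covariate was tried. Group means of the 9 differed by 1.43-fold at most (Aif1), below the fold change of 2 where that was required. Where few of all genes are called, 0 of 9 is also the likely outcome under any setting, so that it does not show stability. With single libraries left out, 0 to 1 were called at 15 min against naive over both genotypes, the 1 being Cx3cr1 without WT 15 min replicate 1, and 0 elsewhere.

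The near-zero genotype differences over all time points changed sign with small changes. On the log2 scale DESeq2 gave -5.466e-06 for Cx3cr1. Without the 15 min libraries the values were -0.0347 for Cx3cr1, -0.0184 for P2ry12, -0.0257 for Aif1 and 0.0266 for C1qc. Leaving out 1 library each gave -0.025 to 0.0236 for Cx3cr1, -0.0034 to 0.0404 for P2ry12, -0.0146 to 0.02996 for Tmem119, -0.0077 to 0.0401 for C1qb and -0.0442 to 0.0043 for C1qc. The cause was not tested.

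Counts over all genes moved with the settings. At 15 min between genotypes the exact test called 102 genes and the quasi-likelihood test 0, and DESeq2 called 35. For Tob-KO mice at 15 min against naive the replicate block called 16 genes in place of 4. Depth limits Aif1 most, at 75 to 165 counts per library. Groups of 3 mice limit every comparison within 1 time.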
